A study of Mus musculus with 12 samples.

Results

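Collagens are the main fibrous proteins of the intervertebral disc, and 39 collagen genes other than those of type I were read on mouse arrays of its outer ring, the annulus fibrosus (AF), and its gel-like core, the nucleus pulposus (NP). They were chosen by symbol: every gene named Col, a number, a and a number in the platform annotation, except Col1a1, Col1a2 and Col10a1. These were 39 of the 42 collagen symbols found this way and 39 of the 22206 transcript clusters tested, each with 1 probe set. Col7a1 and Col12a1 were not analysed here. By the structure of their proteins, 9 were fibrillar, 8 were FACIT (fibril-associated collagens with interrupted triple helices), 10 lie in or near basement membranes, 6 were chains of type VI, 4 were transmembrane and 2, Col26a1 and Col28a1, fell outside these classes.

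The study asked how losing 1 copy of TonEBP, the osmosensitive transcription factor encoded by Nfat5, alters the disc. Lumbar discs (L1 to S1) came from 12-month-old mice, and tissue pooled within 1 animal made 1 sample. There were 3 samples each of NP from TonEBP +/- mice, NP from WT mice, AF from TonEBP +/- mice and AF from WT mice, hybridised to 12 Clariom S arrays. All mice were on the C57BL/6 background, and the TonEBP +/- mice are haploinsufficient, with no cell type singled out by the labels. Values are log2 intensities. Each array holds 23 probe sets for background, and a gene counted as above background where its signal passed their 95th percentile on the same array (7.11 to 7.98 log2). Array medians were 6.82 to 6.87 in NP and 7.43 to 7.64 in AF, so every difference between tissues is given after subtracting each array's own median, and the directions that hold under other scalings are given after the classes.

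Nfat5 itself measured 8.91, 8.94 and 8.74 log2 in AF of TonEBP +/- mice and 7.70, 8.69 and 9.93 in AF of WT mice. In NP it measured 9.06, 9.62 and 9.09 in TonEBP +/- mice and 9.12, 8.80 and 8.34 in WT mice. The groups overlapped in AF and in NP (limma adjusted p = 0.923 and 1), and whether the probes lie in the deleted stretch is not given in the sources used here, so this gene does not check the genotype labels. The tissue labels were checked on marker lists. The mean over 8 nucleus pulposus and notochord markers (of 9 listed), among them Krt19, Krt8 and Shh, was 13.67 to 13.97 log2 on the NP arrays and 9.10 to 11.06 on the AF arrays. In each genotype 6 of them were higher and 1 lower in NP than in AF at a limma adjusted p under 0.05. Car12 was above background on no array. Of 8 annulus and tendon markers, Fmod, Lum, Thbs4 and Tnc were above background on every AF array, while Scx, Mkx, Tnmd and Kera were above it on none. Of these 8, 1 was above background on every NP array and 6 were above it on no NP array. Fmod was higher in NP than in AF, by 6.48 log2 in TonEBP +/- mice and by 4.25 in WT mice, so it goes against its place in the annulus list, whose defining genes Scx and Mkx were not detected. At a limma adjusted p under 0.05, 3 annulus markers were higher and 4 lower in NP of TonEBP +/- mice, and 2 higher and 4 lower in WT mice. Over all clusters 30.9% were higher and 25.3% lower in TonEBP +/- mice, and 33.7% higher and 31.3% lower in WT mice. Markers of other cells were measured too: on the NP arrays none of 7 bone and none of 6 endothelial markers was above background. On every AF array all 8 neutrophil markers, 4 erythroid markers and at least 3 of the bone markers were. All 8 neutrophil and 4 erythroid markers were also above background on every NP array of WT mice. In NP of TonEBP +/- mice 5 neutrophil and 3 erythroid markers were above it on every array.

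A collagen molecule is a triple helix of alpha chains, and which chains are made decides which molecule can form. Fibrillar collagens II and XI build the thin fibrils of cartilage and nucleus, and types III and V join the thicker fibrils of the annulus. FACIT collagens such as type IX sit on fibril surfaces, type IV forms the sheet of basement membranes, and type VI forms beaded filaments in the matrix next to cells. Chains of one molecule need not be transcribed in step, so they are reported side by side.

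Col6a1, Col6a2, Col15a1 and Col18a1 were among the genes higher in NP than in AF under every scaling, so the bases around their transcription starts are shown. Each sequence runs from 250 bases before to 50 after a RefSeq start (GRCm38.p6, 300 bases), in lower case, with every TGGAAA and GGGCGG, on either strand, in capitals. TGGAAA is the core of the element that TonEBP and other NFAT proteins bind, and GGGCGG is the GC box of Sp-family factors. Col6a1 lies at chr10:76725995-76726294 (minus strand), Col6a2 at chr10:76623355-76623654 (minus), Col18a1 at chr10:77166481-77166780 (minus) and Col15a1 at chr4:47207762-47208061 (plus).
Col6a1: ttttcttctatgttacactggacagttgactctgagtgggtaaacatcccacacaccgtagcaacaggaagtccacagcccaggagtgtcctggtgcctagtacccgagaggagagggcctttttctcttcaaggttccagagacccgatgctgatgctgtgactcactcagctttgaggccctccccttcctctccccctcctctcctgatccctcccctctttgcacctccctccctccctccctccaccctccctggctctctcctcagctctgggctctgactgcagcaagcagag
Col6a2: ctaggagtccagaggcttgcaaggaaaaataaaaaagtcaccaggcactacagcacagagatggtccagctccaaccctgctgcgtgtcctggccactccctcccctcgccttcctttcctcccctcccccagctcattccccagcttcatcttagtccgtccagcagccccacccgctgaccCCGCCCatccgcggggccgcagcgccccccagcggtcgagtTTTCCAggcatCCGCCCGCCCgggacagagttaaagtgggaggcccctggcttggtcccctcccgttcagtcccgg
Col18a1: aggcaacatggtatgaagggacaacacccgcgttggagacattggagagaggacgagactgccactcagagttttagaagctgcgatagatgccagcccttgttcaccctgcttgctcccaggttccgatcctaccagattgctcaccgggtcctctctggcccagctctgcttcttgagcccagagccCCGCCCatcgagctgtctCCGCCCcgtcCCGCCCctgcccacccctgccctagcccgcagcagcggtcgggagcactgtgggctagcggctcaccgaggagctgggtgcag
Col15a1: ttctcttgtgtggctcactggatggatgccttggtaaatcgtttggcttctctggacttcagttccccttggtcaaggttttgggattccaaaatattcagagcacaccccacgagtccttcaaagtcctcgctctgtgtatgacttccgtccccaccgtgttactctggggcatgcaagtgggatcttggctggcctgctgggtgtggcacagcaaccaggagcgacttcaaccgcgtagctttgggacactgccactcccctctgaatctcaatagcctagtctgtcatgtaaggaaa

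The Col6a2 window held 1 TGGAAA and 3 GGGCGG, the Col18a1 window 3 GGGCGG, and the Col6a1 and Col15a1 windows neither. RefSeq gives Col6a2 and Col18a1 a second window each, not shown: that of Col6a2 (chr10:76623581-76623880) held 1 GGGCGG and no TGGAAA, and that of Col18a1 (chr10:77113656-77113955) held neither. RefSeq windows matched 32 of the 39 collagen genes (35 windows, since some genes have more than 1 start). TGGAAA was in 5 of the 35, belonging to Col3a1, Col4a6, Col6a2, Col6a4 and Col8a2, against 21.4% of 32851 windows of all genes. GGGCGG was in 21 of the 35, against 35.7% of all windows. The median GC content was 60.0% over the collagen windows and 52.7% over all windows. A match to these letters describes the sequence and says nothing about binding. In RefSeq gene order, Col6a2 and Col6a1 are adjacent on chromosome 10 and Col18a1 follows with 2 protein-coding genes between, so 3 of the 5 genes that were higher in NP under every scaling are close neighbours.

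Which collagens were detected differed by class and tissue. Of the 39 genes, 21 were above background on at least 1 array and 11 on all 12: Col2a1, Col11a1, Col11a2, Col9a3, Col16a1, Col20a1, Col6a1, Col6a2, Col6a3, Col13a1 and Col28a1. Another 18 never rose above background. Per array, 13 to 14 genes were above background in NP and 15 to 19 in AF. Col15a1 and Col18a1 were detected in NP alone. Col3a1, Col5a2, Col24a1, Col27a1, Col9a1, Col9a2 and Col4a4 were detected in AF alone, while Col22a1 was detected on 1 array of each NP group and on all 6 AF arrays. By class, detection on any array reached 7 of 9 fibrillar, 6 of 8 FACIT, 3 of 10 basement membrane, 3 of 6 type VI, 1 of 4 transmembrane and 1 of 2 other collagens.

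**Figure D1:**
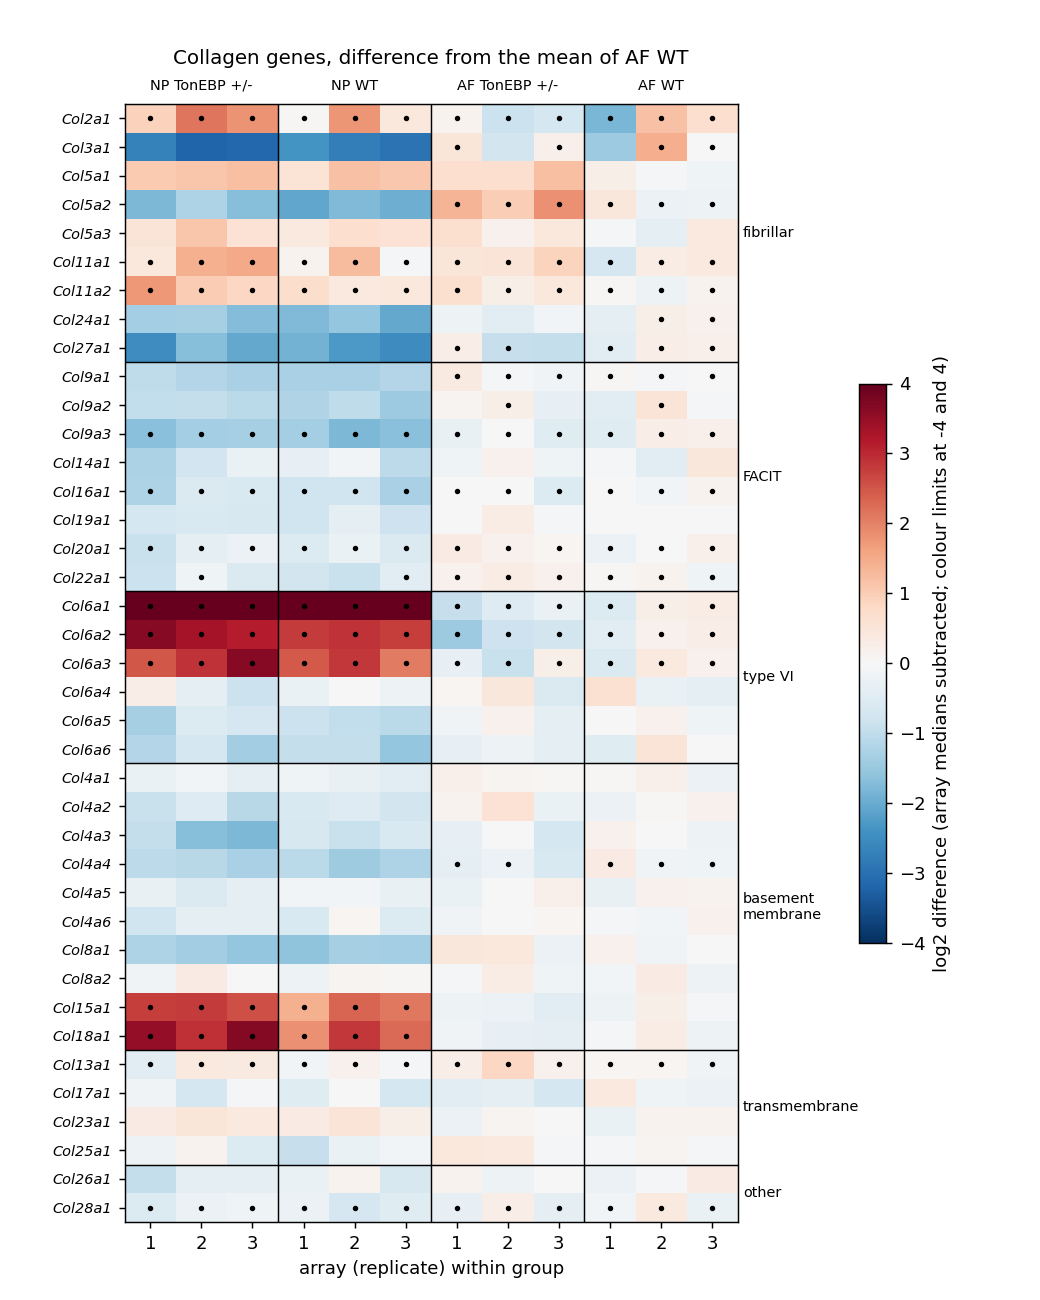
Signal of the 39 collagen genes (rows, by class) on the 12 arrays (columns, by group). Colour is the log2 difference from the gene's mean in AF of WT mice after array medians were subtracted, with limits at -4 and 4, and dots mark values above that array's background; Col6a1, Col6a2, Col6a3, Col15a1 and Col18a1 are red on all 6 NP arrays, Col9a3 blue.

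NP against AF was compared within each genotype to show which collagens mark each compartment. The 3 main chains of type VI and the multiplexins Col15a1 and Col18a1 were higher in NP. The type IX chains and the fibrillar chains Col5a2 and Col27a1 were lower there. In these bulk samples, fewer cells of a type and less RNA per cell cannot be told apart. In TonEBP +/- mice 24 of the 39 genes passed an adjusted p of 0.05, with 7 higher and 17 lower in NP. In WT mice 22 passed, with 6 higher and 16 lower. These counts stand against a large background, since 56.2% of all clusters passed in TonEBP +/- mice (30.9% higher, 25.3% lower) and 65% in WT mice (33.7% higher, 31.3% lower), from limma with Benjamini-Hochberg adjustment over all clusters. The collagen shares, 61.5% and 56.4%, were near those values. The median collagen difference was -0.49 in TonEBP +/- mice, where all clusters had -0.06, and -0.42 in WT mice, where all clusters had -0.10. The calls in TonEBP +/- and in WT mice shared 21 genes, all in one direction. Col2a1, Col11a2 and Col20a1 passed in TonEBP +/- mice alone and Col5a1, as higher in NP, in WT mice alone. No interaction of genotype with tissue passed for any of them. Col5a1 was above background on no array, so no change is drawn for it. Of the genes lower in NP, 6 in either genotype were above background on no array (Col19a1, Col4a2, Col4a3, Col6a5, Col6a6, Col8a1), and no change is drawn for them. Col24a1 was also called lower in TonEBP +/- mice but was above background on no array of that genotype, so no change is drawn for it there.

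Type VI collagen, a filament-forming collagen that surrounds the cells of the disc, is assembled from the alpha1 and alpha2 chains together with alpha3 or one of 3 further chains. Col6a1 measured 14.80, 14.89 and 15.09 log2 in NP of TonEBP +/- mice, against 9.59, 10.06 and 10.14 in their AF. In WT mice it measured 13.97, 14.73 and 14.77 in NP and 10.04, 10.85 and 10.86 in AF. Every NP array was above every AF array. The difference was 5.69 log2 (SE 0.285, 51.5-fold, limma adjusted p = 2.08e-10) in TonEBP +/- mice and 4.65 (SE 0.285, 25.1-fold, limma adjusted p = 2.31e-09) in WT mice. In deposited values it was 5.00 and 3.91.

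Col6a2 measured 14.96, 14.68 and 14.48 log2 in NP of TonEBP +/- mice, against 10.58, 11.29 and 11.19 in AF. WT mice had 14.15, 14.27 and 14.15 in NP and 11.65, 12.32 and 12.37 in AF. Again no NP array fell within the AF range. The difference was 4.38 log2 (SE 0.258, 20.8-fold) in TonEBP +/- mice and 2.82 (SE 0.258, 7.04-fold) in WT mice, with limma adjusted p of 1.20e-09 and 1.90e-07. Col6a3, which encodes the longest of the main chains, measured 12.80, 13.24 and 13.99 log2 in NP and 10.71, 10.22 and 11.17 in AF of TonEBP +/- mice. WT mice had 12.81, 13.21 and 12.46 in NP and 10.52, 11.55 and 11.28 in AF. It separated the tissues too, by 3.34 log2 (SE 0.357, 10.1-fold, limma adjusted p = 8.78e-07) in TonEBP +/- mice and 2.45 (SE 0.357, 5.47-fold, limma adjusted p = 2.55e-05) in WT mice. Quantile normalization of all arrays left smaller differences, all still called: 4.51 and 3.15 log2 for Col6a1, 3.07 and 1.21 for Col6a2, and 2.07 and 0.91 for Col6a3 in TonEBP +/- and WT mice. The further chains Col6a4, Col6a5 and Col6a6 were below background on every array, so the alpha3 chain is the only one of its position that was detected.

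Col15a1 and Col18a1 encode the multiplexins, basement membrane collagens whose C-terminal fragments include endostatin, released from type XVIII. Col18a1 measured 9.30, 8.72 and 9.50 log2 in NP of TonEBP +/- mice, against 6.36, 6.26 and 6.00 in their AF. WT mice had 7.66, 8.68 and 8.11 in NP and 6.49, 6.90 and 6.37 in AF. Col15a1 measured 9.52, 9.56 and 9.36 log2 in NP of TonEBP +/- mice, against 7.26, 7.32 and 6.93 in AF. Its WT values were 8.22, 9.15 and 8.92 in NP and 7.35, 7.82 and 7.49 in AF. Both genes were above background on all 6 NP arrays and on none of the AF arrays, so the AF level is a bound, taken per array as the higher of the lowest signal above background and the gene's own. Such bounds, here and for the genes that follow, hold for values with array medians subtracted. The adjusted p given beside a bound tests the fitted difference, which uses signals below background, and not the bound. Col18a1 was at least 3.87-fold higher in NP of TonEBP +/- mice and at least 2.08-fold higher in NP of WT mice (limma adjusted p = 2.09e-08 and 4.07e-06). Col15a1 was at least 4.79-fold higher in NP of TonEBP +/- mice and at least 3.17-fold higher in NP of WT mice (limma adjusted p = 4.81e-08 and 6.43e-06). With medians subtracted, the fitted differences were 3.65 and 2.30 log2 for Col18a1 and 3.00 and 1.95 for Col15a1 in TonEBP +/- and WT mice. As deposited they were smaller, 2.96 and 1.56 log2 for Col18a1 and 2.31 and 1.21 for Col15a1. The value of 1.21, like the 1.65 after quantile normalization, lies below the Col15a1 bound of 1.67 log2 in WT mice.

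**Figure D2:**
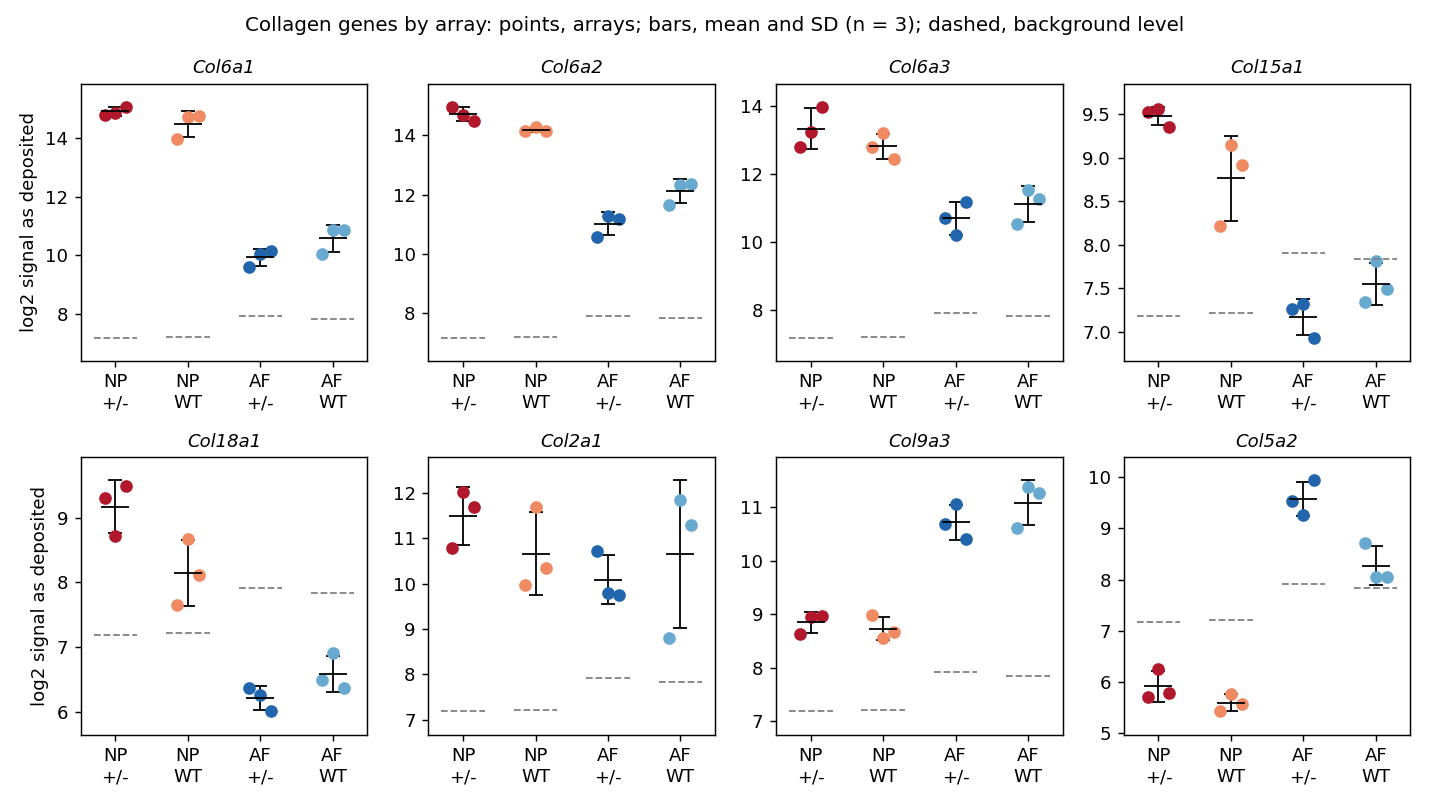
Deposited log2 signal of 8 collagen genes; each point is 1 array, bars are the group mean and SD (n = 3), and dashed lines the mean background level of the group's arrays. The type VI chains, Col15a1 and Col18a1 sit higher in NP, Col9a3 and Col5a2 lower in NP, and Col2a1 overlaps between the tissues in WT mice.

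Among the fibrillar collagens, Col2a1, the main cartilage collagen, measured 10.79, 12.03 and 11.69 log2 in NP of TonEBP +/- mice and 10.71, 9.80 and 9.76 in their AF. WT mice had 9.96, 11.69 and 10.34 in NP and 8.81, 11.85 and 11.30 in AF, where the groups overlapped. Its difference was 2.10 log2 (SE 0.621, limma adjusted p = 0.00913) in TonEBP +/- mice, where quantile normalization gave 1.00 with an adjusted p of 0.274. In WT mice it was 0.75 after medians were subtracted, 0.01 as deposited and -0.55 after quantile normalization, none of them called, so no direction is given. Col11a1 and Col11a2, the type XI chains that nucleate thin cartilage fibrils, also turned sign with the scaling in WT mice (0.45 against -0.74 for Col11a1, 0.51 against -0.28 for Col11a2). Col11a2 passed in TonEBP +/- mice at 0.75 log2 (limma adjusted p = 0.0191) only with medians subtracted.

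Of the other fibrillar chains, Col5a2, Col3a1 and Col27a1 were lower in NP under every scaling. Col5a2, a type V chain that limits fibril diameter, measured 5.71, 6.26 and 5.79 log2 in NP of TonEBP +/- mice, against 9.54, 9.27 and 9.94 in AF. WT mice had 5.44, 5.78 and 5.58 in NP and 8.73, 8.06 and 8.05 in AF. It was below background on every NP array and above it on every AF array, which makes it at least 3.27-fold lower in NP of TonEBP +/- mice and at least 1.25-fold lower in NP of WT mice (limma adjusted p = 1.54e-07 and 1.78e-05). Col3a1, the fibrillar collagen of soft connective tissue, was above background on no NP array and on 2 of 3 AF arrays in each genotype. It ran from 4.20 to 4.70 log2 in NP and from 7.46 to 8.59 in AF of TonEBP +/- mice, and from 4.49 to 5.05 in NP and from 6.71 to 9.67 in AF of WT mice. Col27a1, a cartilage fibrillar collagen, measured 5.53, 6.32 and 5.97 log2 in NP of TonEBP +/- mice, against 8.98, 7.88 and 7.65 in AF. WT mice had 6.14, 5.75 and 5.55 in NP and 8.32, 9.08 and 8.97 in AF, at least 1.78-fold lower in NP (limma adjusted p = 3.28e-05). Col24a1 was above background on 2 AF arrays of WT mice alone. The other type V chains, Col5a1 and Col5a3, were below background on every array, so no change is drawn for them.

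FACIT collagens were lower in NP where they were called. Of the 8 genes, 7 passed in TonEBP +/- mice and 6 in WT mice, all lower, where 25.3% and 31.3% of all clusters were lower. Col19a1, below background on every array, is among them. The class medians, over all 8, were -0.73 and -0.83 log2, against -0.06 and -0.10 over all clusters. Col9a3, a chain of the type IX collagen that covers type II fibrils, measured 8.62, 8.94 and 8.97 log2 in NP of TonEBP +/- mice and 10.68, 11.06 and 10.41 in AF. WT mice had 8.98, 8.55 and 8.67 in NP and 10.60, 11.38 and 11.26 in AF. With no overlap, it fell by 1.18 log2 (SE 0.249, limma adjusted p = 0.000802) in NP of TonEBP +/- mice and by 1.61 (SE 0.249, limma adjusted p = 4.45e-05) in NP of WT mice. The differences were -1.87 and -2.35 as deposited and -2.04 and -2.75 after quantile normalization. Col9a1 measured 7.14, 7.00 and 6.86 log2 in NP of TonEBP +/- mice, against 9.23, 8.87 and 8.62 in AF. WT mice had 6.89, 6.91 and 7.02 in NP and 8.98, 8.91 and 8.93 in AF. Since it was above background on no NP array and every AF array, it was at least 2.05-fold lower in NP of TonEBP +/- mice and at least 1.98-fold lower in NP of WT mice (limma adjusted p = 0.000142 and 9.09e-05). Col9a2, the remaining type IX chain, exceeded background on 1 AF array in each genotype.

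Col16a1, a FACIT found in cartilage and at cell junctions, measured 8.24, 8.91 and 8.87 log2 in NP of TonEBP +/- mice and 10.18, 10.29 and 9.53 in AF. WT mice had 8.71, 8.73 and 8.23 in NP and 10.23, 10.20 and 10.37 in AF. It fell by 0.97 log2 in NP of WT mice (SE 0.255, limma adjusted p = 0.00355) and by 0.63 in NP of TonEBP +/- mice (SE 0.255, limma adjusted p = 0.0450), a call lost in 12 of 19 alternative settings. Other scalings gave larger differences, -1.32 and -1.39 in TonEBP +/- mice and -1.71 and -1.98 in WT mice, as deposited and after quantile normalization. Col22a1, known from tissue junctions, fell by 0.74 log2 in NP of TonEBP +/- mice and by 0.69 in NP of WT mice (SE 0.229 each, limma adjusted p = 0.0119 and 0.0156). Col20a1 fell by 0.69 log2 in NP of TonEBP +/- mice (limma adjusted p = 0.0187), a call lost in 2 of 19 settings. In WT mice it differed by -0.46 without passing (limma adjusted p = 0.0902), but was called lower as deposited (-1.20) and after quantile normalization (-1.06). Col14a1 and Col19a1 were below background on every array.

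Type IV and type VIII collagens, the sheet and short-chain network formers, were mostly below background: of 8 genes only Col4a4 exceeded it. Col4a4 pairs with Col4a3 and Col4a5 in the basement membrane network known from kidney and cochlea. It measured 6.62, 6.53 and 6.36 log2 in NP of TonEBP +/- mice, against 7.99, 8.21 and 7.66 in AF. WT mice had 6.62, 6.28 and 6.46 in NP and 8.75, 8.33 and 8.24 in AF, at least 1.39-fold lower in NP (limma adjusted p = 0.00017). Its partners Col4a3 and Col4a5 were below background on all arrays, as were Col4a1 and Col4a2, the chains of nearly every basement membrane. Among transmembrane collagens only Col13a1, a component of cell adhesion sites, was detected. It differed by -0.33 log2 in TonEBP +/- mice and by 0.00 in WT mice, neither passing (limma adjusted p = 0.290 and 0.995), while the deposited values gave -1.02 and -0.74, both called. Col28a1, a von Willebrand A domain collagen, differed by -0.19 and -0.46 (limma adjusted p = 0.544 and 0.114), and by -0.88 and -1.20, both called, in deposited values. Col17a1, Col23a1, Col25a1 and Col26a1 stayed below background.

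**Figure D3:**
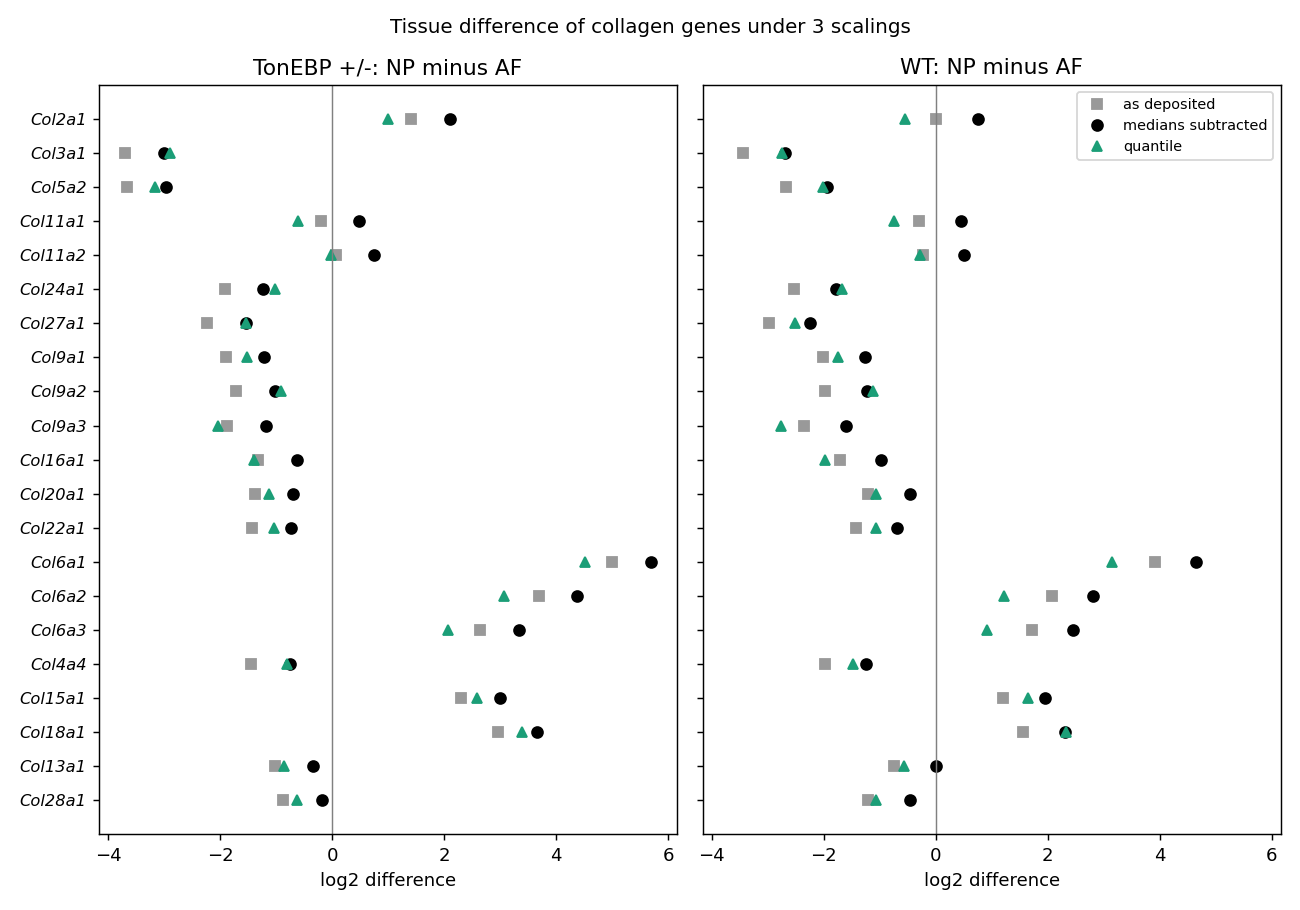
Difference NP minus AF (log2) of the 21 collagen genes above background on at least 1 array, in TonEBP +/- mice and in WT mice, under 3 scalings: medians subtracted, values as deposited and quantile normalization. Points are the fitted differences; Col6a1, Col6a2, Col6a3, Col15a1 and Col18a1 lie right of 0 under all 3 scalings, whereas Col2a1 in WT mice and Col11a1 lie on both sides of it.

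Because the tissues differed in array median and spread, each gene was also judged under all 3 scalings. In TonEBP +/- mice 19 genes were called in one direction under all of them, 5 higher and 14 lower in NP. In WT mice 18 were, 5 higher and 13 lower. Of the lower genes, 11 in TonEBP +/- mice and 10 in WT mice were above background on at least 1 of the 12 arrays. Col24a1, among the 11, was above it only in AF of WT mice, so no change is drawn for it in TonEBP +/- mice. Nor is a change drawn for the lower genes above background on no array (Col4a2, Col4a3 and Col8a1 in TonEBP +/- mice, Col6a5, Col6a6 and Col8a1 in WT mice). Single scalings called 48.9% to 74.3% of all clusters in TonEBP +/- mice and 54.5% to 78.3% in WT mice. The share of all clusters called under all 3 was not computed. The 5 higher genes were Col6a1, Col6a2, Col6a3, Col15a1 and Col18a1 in both genotypes. Sign differed between scalings for 7 genes in TonEBP +/- mice and 9 in WT mice. The tissues also differed in cell markers: the mean over 8 neutrophil markers was 8.40 to 9.99 log2 in NP of TonEBP +/- mice, 10.84 to 12.35 in NP of WT mice, and 15.38 to 17.31 in AF. The part of these markers in the collagen differences was not tested.

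The genotype comparison in AF asked what losing 1 TonEBP copy does in the outer ring. Col5a2 was higher and Col6a2 lower in TonEBP +/- mice, and no other collagen of the 39 passed. These 2 are 5.13% of the genes, where 6.07% of all clusters passed (2.76% higher and 3.31% lower), so the share is near the background. An unadjusted p under 0.05 was reached by 5 collagens, against 23.2% of all clusters, and groups of 3 arrays did not overlap for 9, against 22.3%. The median collagen difference was -0.11 log2 and that of all clusters -0.04. From the 6 AF arrays alone neither gene passed, and 0.0135% of all clusters did.

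Col5a2 rose in AF of TonEBP +/- mice. It measured 9.54, 9.27 and 9.94 log2 there, against 8.73, 8.06 and 8.05 in AF of WT mice, and the groups did not overlap. The difference was 1.30 log2 (SE 0.261, 2.47-fold, limma adjusted p = 0.0174 with the spread shared over 12 arrays, 0.105 from the AF arrays alone). Col6a2 fell. It measured 10.58, 11.29 and 11.19 log2 in AF of TonEBP +/- mice, against 11.65, 12.32 and 12.37 in WT mice, again without overlap. It fell by 1.09 log2 (SE 0.259, 2.13-fold, limma adjusted p = 0.0273 with the shared spread, 0.130 from the AF arrays alone). Col6a1 and Col6a3, its partner chains, differed by -0.65 and -0.41 log2 without passing (limma adjusted p = 0.178 and 0.509).

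Other collagens of AF did not pass. Col3a1, the immediate neighbour of Col5a2 on chromosome 1, differed by -0.10 log2 (95% interval -1.18 to 0.98). Col27a1 differed by -0.62 (limma adjusted p = 0.287) and Col4a4 by -0.48 (limma adjusted p = 0.219). The cartilage chains had wide intervals: Col2a1 differed by -0.56 (95% interval -1.88 to 0.75), since WT array 1 read 8.81 log2 and the other WT arrays 11.85 and 11.30. That array was also lowest among the AF arrays of WT mice for Col3a1 and Col11a1 and for the mean of 8 chondrocyte markers, 11.9 against 13.4 and 13.8. It was the lowest of them for Col6a1, Col6a2 and Col6a3 as well, the highest for Col5a2, and the highest for the nucleus pulposus marker mean, 11.06 against 9.71 and 9.63. Without it both Col5a2 (1.53 log2) and Col6a2 (-1.32) were still called in AF at a limma adjusted p under 0.05. Col5a1, Col17a1 and Col4a3 had adjusted p of 0.0655, 0.196 and 0.362 in limma but were below background on every AF array.

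Marker lists also differed between genotypes in AF, where 2.76% of all clusters were called higher and 3.31% lower. The mean over 7 bone markers was 10.17 to 10.82 log2 in TonEBP +/- mice and 8.43 to 9.58 in WT mice, with 5 of 7 called higher; Sost was not above background. Col1a1 and Col1a2, the type I chains that bone and annulus share, rose as well (limma adjusted p = 0.00772 and 0.0153, and 0.0961 and 0.105 from the AF arrays alone). Of 8 neutrophil markers 3 were called higher, with means of 16.54 to 17.31 log2 in TonEBP +/- mice and 15.38 to 15.96 in WT mice, and of 6 osteoclast markers 3 were higher, while 2 of 8 chondrocyte markers were lower. Nucleus pulposus and notochord markers averaged 9.10 to 9.54 log2 in AF of TonEBP +/- mice and 9.63 to 11.06 in AF of WT mice, without overlap and with 1 of 8 called lower. Annulus and tendon markers averaged 8.76 to 8.99 and 8.58 to 8.73, also without overlap, with 2 of 8 called higher and 1 lower. From the AF arrays alone 1 bone and 1 chondrocyte marker were called, where 0.0135% of all clusters were. No neutrophil, osteoclast, nucleus pulposus or annulus marker was called in that fit. The part of these markers in the Col5a2 and Col6a2 results was not tested.

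In NP no collagen passed the genotype test, where 0.113% of all clusters did. An unadjusted p under 0.05 was reached by 4 of the 39, against 3.72% of all clusters, and groups did not overlap for 7, against 11.3%; the 6 NP arrays alone gave 0 calls over all clusters (0%). Col18a1 had the smallest p. It measured 9.30, 8.72 and 9.50 log2 in NP of TonEBP +/- mice and 7.66, 8.68 and 8.11 in NP of WT mice, every TonEBP +/- value above every WT value. The difference of 1.02 log2 (95% interval 0.42 to 1.63) had a limma adjusted p of 0.445. Col15a1 differed by 0.72 (95% interval 0.18 to 1.26, limma adjusted p = 0.898) and Col11a2 by 0.64 (95% interval 0.11 to 1.17, limma adjusted p = 1), both without overlap.

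The type VI chains in NP had fitted differences of 0.43 (Col6a1), 0.52 (Col6a2) and 0.52 (Col6a3) log2, each with a limma adjusted p of 1. Their 95% intervals ran from -0.17 to 1.04, from -0.03 to 1.07 and from -0.22 to 1.25. Col6a1 and Col6a2 did not overlap between genotypes, while Col6a3 did. Col2a1 differed by 0.84 (95% interval -0.48 to 2.15) and Col11a1 by 0.63 (95% interval -0.16 to 1.43). Col4a3, at -0.81, was below background on all NP arrays. In the same NP samples 3 of 8 neutrophil markers were called lower in TonEBP +/- mice, with means of 8.40 to 9.99 log2 in TonEBP +/- mice and 10.84 to 12.35 in WT mice. Erythroid markers averaged 7.59 to 7.82 log2 in TonEBP +/- mice and 9.09 to 10.78 in WT mice, with 1 of 4 called lower. The part of these markers in the collagen values was not tested.

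**Figure D4:**
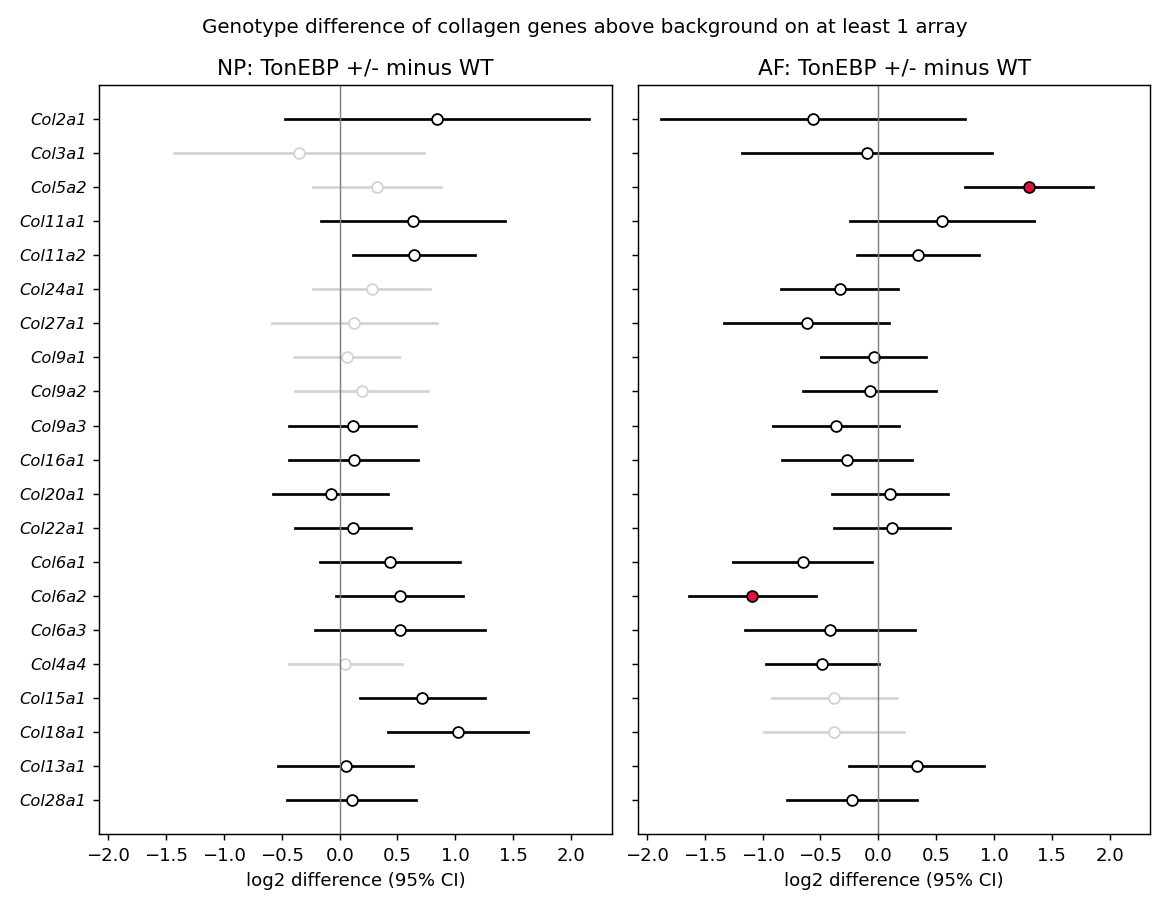
Difference TonEBP +/- minus WT (log2) of the 21 collagen genes above background on at least 1 array, in NP and in AF, with 95% intervals from limma. Filled points have an adjusted p under 0.05, which are Col5a2 at 1.30 and Col6a2 at -1.09 in AF; grey marks genes below background on all 6 arrays of that tissue.

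Whether the genotype difference depended on tissue was tested as an interaction, the NP difference minus the AF difference. None of the 39 passed, where 0.887% of all clusters did, and 5 had an unadjusted p under 0.05, against 14% of all clusters. Col6a2 came closest, at 1.61 log2 (SE 0.366, limma adjusted p = 0.0506), with an AF difference of -1.09 and an NP difference of 0.52. Col18a1 differed by 1.40 (limma adjusted p = 0.115), Col15a1 by 1.10 (0.163), Col6a1 by 1.09 (0.216) and Col6a3 by 0.93 (0.418) in the same direction; Col15a1 and Col18a1 were below background on every AF array. Col5a2 differed by -0.98 (limma adjusted p = 0.223) and Col5a1 by -0.60 (0.446). The AF call of Col6a2 is therefore not shown to be particular to AF.

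The enzymes and partners that collagens need were read from lists, each counted in full. Beside these counts, 30.9% of all clusters were higher and 25.3% lower in NP of TonEBP +/- mice, and 33.7% higher and 31.3% lower in WT mice; no list was tested against them. Of 18 genes for chain modification and folding, 12 were higher and 1 lower in NP than in AF of TonEBP +/- mice, and 13 higher and 0 lower in WT mice. P4ha1 and P4ha3, prolyl hydroxylases that stabilise the helix, were 4.32 and 6.60 log2 higher in NP of WT mice (SE 0.254 and 0.312), with Crtap, a subunit of the prolyl 3-hydroxylase complex, 5.08 higher (SE 0.293). Of 11 collagen receptors, 6 were higher and 3 lower in NP of TonEBP +/- mice, and 8 higher and 3 lower in WT mice. Ddr2, a receptor kinase for fibrillar collagen, was 6.93 log2 higher in NP of TonEBP +/- mice and 6.23 higher in WT mice. Mrc2, which takes up collagen fragments, was 5.43 and 5.55 higher.

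Of 15 basement membrane partners, 11 were higher and 4 lower in NP of TonEBP +/- mice, and 10 higher and 3 lower in WT mice. Lama4, a laminin chain, was 3.67 log2 higher in NP of TonEBP +/- mice and 3.81 higher in WT mice, and Agrn, a basement membrane proteoglycan, was above background on every NP array and no AF array. Of 13 cartilage fibril partners, 3 were higher and 9 lower in NP of TonEBP +/- mice, and 3 higher and 8 lower in WT mice. Fmod, a small proteoglycan of collagen fibrils, was 6.48 and 4.25 log2 higher, and Bgn, another, was 4.31 and 4.61 lower. Of 12 processing and crosslinking genes, 4 were higher and 5 lower in NP of TonEBP +/- mice, and 4 higher and 3 lower in WT mice, with Lox, the crosslinking oxidase, above background in AF alone.

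In the genotype comparison of AF, Serpinh1, the collagen chaperone, was 1.56 log2 higher in TonEBP +/- mice and P3h2, a prolyl 3-hydroxylase, 1.28 lower (limma adjusted p = 0.0172 and 0.0289). Lox was 1.21 higher and Pcolce2, a procollagen C-proteinase enhancer, 1.97 lower (limma adjusted p = 0.0320 and 0.0259). Bmp1, the C-proteinase, was also called (limma adjusted p = 0.0326), above background on every AF array of TonEBP +/- mice and on none of WT mice. Lum was 1.62 higher and Fmod 2.11 lower (limma adjusted p = 0.0176 and 0.00451). No receptor and no basement membrane partner passed, and none of these calls held from the AF arrays alone. In NP no gene of the 5 lists passed. The interaction passed for P3h2 (2.13 log2, limma adjusted p = 0.0351), Fmod (2.28, 0.0173) and Lum (-2.14, 0.0419), which was below background in NP.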

How the data were processed

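Total RNA from 12 samples was read on Clariom S Mouse arrays. The authors deposited 1 table of log2 RMA values per probe set, made with Affymetrix Expression Console per the submitters' processing notes; settings, and which arrays were normalized together, are not given in the sources used here. Control probe sets (6640 of 28846) were left out, and the platform annotation named 19572 of 22206 clusters. limma (3.58.1, R 4.3.3) fitted 1 mean per group to all 12 arrays with Benjamini-Hochberg adjustment; genotype and interaction tests used the deposited log2 values and tissue tests subtracted array medians. Alternatives were other scalings, the arrays compared alone, array weights, a robust trended fit, a background filter, mean over probe sets and leaving out each array. The precision is limited by the number of arrays, 3 per group. Members and lists were chosen with earlier results of these data known. Values were given in full for collagens passing adjusted p under 0.05 or, up to 8, of smallest p between genotypes, for the 6 largest called differences each way between tissues, and for their partner chains; up to 4 called genes per list were named. Col7a1 and Col12a1 were not analysed here. Figures used matplotlib 3.10.9.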

Additional observations from a re-analysis of the deposited data

How the results depend on the processing

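In AF, the count of collagens called between genotypes was 2 in the reported fit, 0 from the 6 AF arrays alone, 0 with array weights per group and 0 to 3 over the fits that leave out 1 array (0 without AF TonEBP +/- array 3 or AF WT array 2, 1 without AF TonEBP +/- array 1 or AF WT array 3). Col5a2 lost its call in 4 of 19 settings (1.13 to 1.53 log2, limma adjusted p 0.00418 to 0.105) and Col6a2 in 6 of 19 (0.00926 to 0.130). Over all clusters the AF count was 1347 in the reported fit, 3 from the AF arrays alone, 171 with array weights, 81 without AF TonEBP +/- array 3 and 4029 without AF TonEBP +/- array 2. In NP the collagen count was 0 in every fit that leaves out 1 array and in the other alternatives. Few clusters of any kind passed there: 0.00901% to 0.356% of those tested when 1 array was left out, and 0% to 0.378% in the other alternatives. The interaction gave 1 collagen, Col6a2, with array weights, 1 with the filter on clusters above background, and 0 to 1 when 1 array was left out. Of the clusters tested, 0.977%, 1.99% and 0.0991% to 5.94% passed in these fits. Between tissues, the filter on clusters above background gave 13 of 19 collagens tested in WT mice, where fewer genes were tested. Of all clusters left by the filter, 78.2% were called. Deposited values without median subtraction gave 33 calls in TonEBP +/- mice (6 higher, 27 lower) and 33 in WT mice (5 higher, 28 lower). In those values 74.3% and 78.3% of all clusters were called, with median differences of -0.75 and -0.84 log2. Quantile normalization gave 22 (7 higher, 15 lower) and 23 (8 higher, 15 lower), where 48.9% and 54.5% of all clusters were called. Leaving out 1 array gave 18 to 25 calls in TonEBP +/- mice and 19 to 22 in WT mice. Over all clusters those fits called 48.5% to 61.2% and 58.6% to 68.1%. Of 879 gene values recomputed over 47 named results, 847 kept their direction and side of the threshold, 26 lost their call, 6 gained one and 0 reversed. These results were chosen for small p or large called differences, so their 0 reversals say little about the other collagens. Leaving out an array of a group not compared also kept the fitted difference as it was. Over all 39 collagens, the tissue difference turned sign between scalings for 7 in TonEBP +/- mice and 9 in WT mice. The cause of these changes was not tested. No paired analysis was possible because replicate numbers were given in accession order and the labels do not tie AF and NP samples, or the genotypes, to animals. The number of arrays limits the precision.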
